A study of Homo sapiens with 2 samples.

Results

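The 8 globin genes of the alpha and beta clusters were followed in a ChIP-on-chip experiment, in which chromatin immunoprecipitated for the transcription factor GATA1 was read on promoter microarrays. The genes were HBB, HBD, HBG1, HBG2 and HBE1 of the beta cluster on chromosome 11, and HBZ, HBA2 and HBA1 of the alpha cluster on chromosome 16. A probe was counted as a member's probe when the array annotation listed that gene by symbol with a distance from its start. This gave 170 probes, 131 in the beta cluster and 39 in the alpha cluster, of 474411 genomic probes on both arrays of the set. All 170 probes lay on the array titled chIP2, which held 237201 genomic probes, and none lay on chIP1.

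Both pull-downs came from the same soluble chromatin of untreated, parental Meg-01 cells, an established human megakaryocytic leukemia line that carries no agent or knockdown in this experiment. The immunoprecipitation (IP) used a goat antibody to the C-terminus of GATA1 and was labeled with Cy5, while the control used normal goat IgG and was labeled with Cy3. Sonicated chromatin was amplified after linker ligation, and both pull-downs were hybridized together to a set of 2 arrays with different probes. Each probe was therefore measured in 1 hybridization without a replicate or a dye swap, so every value is a description of these arrays, no test was possible, and precision is limited by having 1 array per probe. Cell identity could not be checked against marker transcripts, because the arrays measured genomic DNA.

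Hemoglobin is a tetramer of alpha-like and beta-like chains, and both clusters carry their genes in the order of use during development. HBZ and HBE1 encode embryonic chains, HBG1 and HBG2 the fetal gamma chains, HBB and HBD the adult beta and delta chains, and HBA1 and HBA2 the same alpha chain. GATA1 binds the sequence core GATA, is required for red cell and platelet formation, and is known in erythroid cells to occupy globin promoters and the distal enhancers that control each cluster. Megakaryocytes arise from progenitors shared with the erythroid lineage and are not a site of hemoglobin synthesis.

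The HBD promoter is shown because it is the sequence of a member that was held in the RefSeq promoter table used here, and because its GATA sequence is the kind of site that the assay addresses. The 250 bases before the annotated start (GRCh38.p14, chr11:5234484-5234733, minus strand) are printed below in the direction of transcription, with capitals at the match to AGATAA, which is read here on the other strand.
HBD: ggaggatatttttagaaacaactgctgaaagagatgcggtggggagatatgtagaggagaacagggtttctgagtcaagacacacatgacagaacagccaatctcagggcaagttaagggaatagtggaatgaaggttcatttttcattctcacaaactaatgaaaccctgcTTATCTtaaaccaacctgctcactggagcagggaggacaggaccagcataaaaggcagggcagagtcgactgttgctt

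The search covered both strands for 4 GATA sequences, namely AGATAA, its variant AGATAG, the form TGATAA and its variant TGATAG. The HBD window held 1 match, an AGATAA that began at position -78. AGATAA was held by 9.17% of 35116 promoters of the same length, and any of the 4 GATA sequences by 22.3%. CCAAT was found 1 time at -153, and was held by 32% of promoters. Neither TATAAA, held by 10.7%, nor CACCC, held by 54.7%, was found, where CACCC is the core of the box through which the erythroid factor KLF1 acts on HBB. These matches describe letters in this window and do not show occupancy. The array probes nearest to the HBD start, at 50 bp inside the gene and 147 bp upstream, read -0.45 and 0.17.

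To place each probe on a common scale, the processed intensity of the IP was divided by that of the IgG, log2 was taken and the median of the array was set to 0. A window was the mean of 3 adjacent probes with each neighbor within 1000 bp, and it was assigned to every gene with a probe in it. A window of at least 1, that is at least 2-fold toward the IP, was called enriched, and a window of -1 or less was called IgG-side. All 170 probes were well above background in both channels, and 0 were saturated or marked as outliers. The median mean signal of the globin probes was 494 for the IP and 429 for the IgG, against 340 and 303 for the negative control spots. The median error that the scanner software assigned to a globin probe was 0.22 on the log2 scale, with a maximum of 0.53, and it covers measurement within 1 array only.

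Of the 8 globin genes, 4 (HBB, HBD, HBZ and HBA2) had an enriched window, where 54.9% of the 8759 genes of the array did and 57.1% of the 17054 genes of both arrays. HBB and HBE1 had IgG-side windows, 2 of 8 genes, where 50.5% of the genes of the array and 52.9% of those of both arrays did. The median of the highest windows was 0.94 over the 8 genes and 1.09 over all genes of both arrays. These counts of genes rest on few windows for some members, with 4 for HBA1 and 8 each for HBG1 and HBG2. Counted by window, 4.11% of the 146 windows of the 8 genes were enriched and 13.7% were IgG-side, against 7.26% and 9.59% of the windows of the array. The IgG-side share was thus below the background by gene and above it by window. No gene's highest window reached 3-fold.

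The clusters lay on opposite sides of the array median. The median of the 131 beta cluster probes was -0.38 and 35 of them (26.7%) were above 0, while the median of the 39 alpha cluster probes was 0.47 and 28 (71.8%) were above 0. By gene, medians were 0.63 for HBA2, 0.59 for HBA1, 0.22 for HBZ, -0.25 for HBD, -0.25 for HBB, -0.32 for HBG1, -0.43 for HBG2 and -0.59 for HBE1. Neighbors in this order differed by less than the median scanner error, apart from HBA1 against HBZ and HBZ against HBD. The spread among the probes of 1 gene was wide, with an SD from 0.44 for HBG1 to 0.95 for HBA2, so single probes of all 8 genes overlapped. The order within the alpha cluster depended on the measure, since means were 0.62 for HBA1, 0.35 for HBZ and 0.21 for HBA2.

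**Figure D1:**
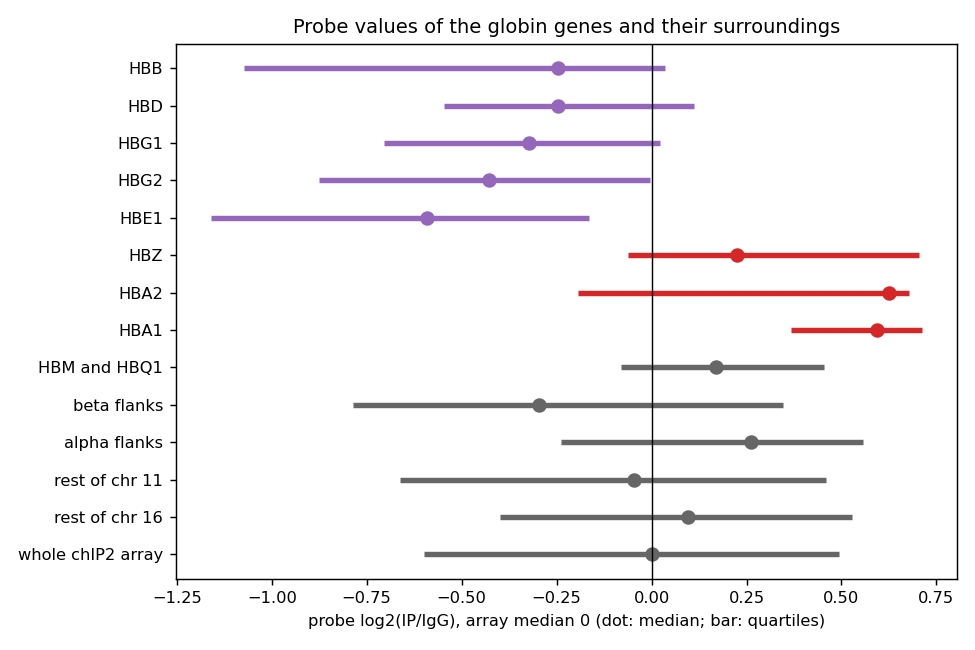
Median (dot) and quartiles (bar) of probe log2(IP/IgG), with the array median at 0, for each globin gene (purple, beta cluster; red, alpha cluster) and for their surroundings (gray). The 5 beta cluster genes had medians from -0.59 to -0.25 and the 3 alpha cluster genes from 0.22 to 0.63. The median of the flanks of each cluster lay on the same side of 0 as that of the cluster. HBZ and the alpha flanks share 7 probes.

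By median, the named genes beside each cluster leaned the same way as the globin genes. Probes of the olfactory receptor genes OR51V1, OR51B4 and OR51B2 beside the beta cluster had a median of -0.30 (105 probes). Probes of RHBDF1, MPG, C16orf35, LUC7L and C16orf9 beside the alpha cluster had a median of 0.26 (124 probes). Of these, 7 were also HBZ probes, so the alpha flanks were not fully separate from the cluster. Brightness differed too, with median intensity percentiles of 22.4 in the beta flanks against 41.0 in the beta cluster. They were 66.4 in the alpha flanks and 49.3 in the alpha cluster, and the part of brightness in these medians was not tested. HBM and HBQ1, a pair of further globin genes inside the alpha cluster, had a median of 0.17 over 37 probes. All other probes had medians of -0.05 on chromosome 11 and 0.10 on chromosome 16.

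Of the 117 windows of the beta cluster, 2 were enriched (1.71%) and 20 were IgG-side (17.1%), where 7.26% and 9.59% of the 206629 windows of the array were. The shares were 8.25% and 12.4% in the beta flanks, and 6.6% and 11.3% on the rest of chromosome 11. Of the 29 windows of the alpha cluster members, 4 were enriched (13.8%) and 0 were IgG-side. HBM and HBQ1, inside the same cluster but not members, had 4 enriched and 1 IgG-side of 33 windows. The IgG-side one, of HBM, read -1.19 on probes that are also listed for HBZ by distance. The shares were 11.6% and 2.68% in the alpha flanks, and 6.61% and 4.94% on the rest of chromosome 16. The alpha flanks include both enriched HBZ windows, which lie on probes shared with C16orf35. Overlapping windows share probes, so these counts are not independent, and no share was tested against another.

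Brightness moved with these shares on the array. From the dimmest to the brightest of 4 equal groups of its windows, 20.7%, 10.3%, 5.46% and 1.93% were IgG-side, and 11.4%, 7.12%, 5.06% and 5.43% were enriched. The beta cluster had 38 of its 117 windows in the dimmest group, 42 in the second, 24 in the third and 13 in the brightest. Its IgG-side windows numbered 6, 7, 7 and 0 in these groups. Of the 29 alpha cluster windows, 2, 15, 9 and 3 fell in the same groups, and the enriched ones numbered 0, 1, 3 and 0. The part of brightness in the difference between the clusters was not tested.

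To determine where along the beta cluster the signal lay, the genes were described in turn. HBB, the adult beta chain gene, had 47 probes from 5756 bp upstream to 2452 bp downstream of its start. Its highest window was not at the promoter but past the end of the gene, at chr11:5202396-5202696, centered 2345 bp from the start. The files and labels give no genome build for their coordinates, which are printed as the files hold them. The 3 probes had IP intensities of 4131, 6312 and 3122 and IgG intensities of 1226, 1621 and 1795, and read 1.75, 1.95 and 0.79. Their mean was 1.498, with a scanner error of the mean of 0.14.

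This window stood at percentile 76.7 among the highest windows of the 8759 genes of the array, so the HBB value was common on the array. It was a bright window, at a mean intensity percentile of 86.1. All 6 HBB probes annotated as downstream were above 0, from 0.05 to 1.95 with a median of 1.11. All 6 are also listed for HBD by their distance from it, and without probes listed for more than 1 globin gene the highest HBB window was -0.017. An enhancer with GATA1 sites is known 3′ of HBB. Whether this window overlies it was not tested, since no genome of the build was used.

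At the HBB start the IP was not above the IgG. Of the 9 probes within 1 kb of the start, 8 were below 0, and the 9 ranged from -1.47 to 0.43 with a median of -0.40. The longest IgG-side stretch of both clusters lay upstream, at chr11:5206899-5208142, from 2051 to 3235 bp before the start. It held 8 IgG-side windows in a row over 10 probes, all from -1.69 to -0.89, with a mean of -1.23. Its lowest window was centered 3011 bp upstream and read -1.42, from probes of -1.51, -1.69 and -1.06 with IP intensities of 397, 616 and 1362 and IgG intensities of 1125, 1975 and 2830. The stretch had a mean intensity percentile of 38.5, and all of its 10 probes are also listed for HBD by their distance from it. The 2 other IgG-side windows of HBB read -1.04, 744 bp into the gene, and -1.12, 1634 bp upstream. The probes of the upstream one are also listed for HBD, and those inside the gene for HBB alone. Without probes listed for more than 1 globin gene, the lowest HBB window was -1.04.

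HBD, the gene of the minor adult delta chain, had 19 probes, and 1 of its 17 windows was enriched. That window, at chr11:5215470-5216379 and centered 3361 bp upstream, read 1.05, from probes of 1.98, 0.85 and 0.32. IP intensities were 1036, 1574 and 605 against IgG intensities of 261, 872 and 482. The value lay just past the threshold, at percentile 49.2 of the genes of the array, and it rested on 1 probe near 2 and on widely spaced neighbors. With neighbors restricted to 500 bp, the highest HBD window was 0.69. The lowest HBD window was -0.75, centered 4914 bp upstream, and 0 windows were IgG-side. Windows were assigned by symbol, so the IgG-side windows of HBB on probes also listed for HBD are not in this count.

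The fetal genes HBG1 and HBG2 had no window above 0, although with normexp background correction their highest windows read 0.028 and 0.028. HBG1 had 12 probes, from -1.19 to 0.17, and its 8 windows ran from -0.59 to -0.13. HBG2 had 10 probes, from -1.27 to 0.29, and its 8 windows ran from -0.98 to -0.16. Their highest windows stood at percentiles 1.40 and 1.24 among the genes of the array. Of 153 genes of the array with 8 windows, 7 (4.58%) had a highest window below 0, HBG1 and HBG2 included. The median highest window of the 153 genes was 0.85. HBG1 probes were bright, with a median intensity percentile of 80.5, and HBG2 probes were dimmer, at 37.2.

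Coverage of the gamma promoters was thin. The HBG1 probe nearest to the start lay 467 bp upstream and read 0.08, with an IP intensity of 4404 and an IgG intensity of 4141, and no HBG1 probe lay between it and one 1737 bp downstream of the start. The HBG2 probe nearest to its start lay 747 bp upstream and read 0.02, from 1837 over 1805. Every HBG1 and HBG2 probe was listed for both genes, each with its own distance. The genes are near-identical copies, so DNA of one may hybridize to probes of the other.

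HBE1, the embryonic epsilon chain gene, had the lowest median of the 8 genes, and 9 of its 43 probes were above 0. Within 1 kb of the start, 11 of 13 probes were below 0, with a median of -0.81 and a minimum of -1.90 at 120 bp upstream. Of its 39 windows 10 were IgG-side and 0 enriched. The IgG-side windows fell in 6 separate stretches, with means from -1.23 to -1.08. The lowest window, centered 2185 bp downstream of the start, read -1.41, from IP intensities of 303, 179 and 745 against IgG intensities of 836, 676 and 1315.

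The highest HBE1 window was the outermost one, at chr11:5252987-5253395 and centered 5238 bp upstream. It read 0.66, from probes of 0.39, 0.50 and 1.09, where the outermost probe had an IP intensity of 4460 and an IgG intensity of 2084. The locus control region, the distal enhancer of the beta cluster, lies upstream of HBE1. No HBE1 probe lay farther than 5422 bp from the start, so the region beyond was not followed here.

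**Figure D2:**
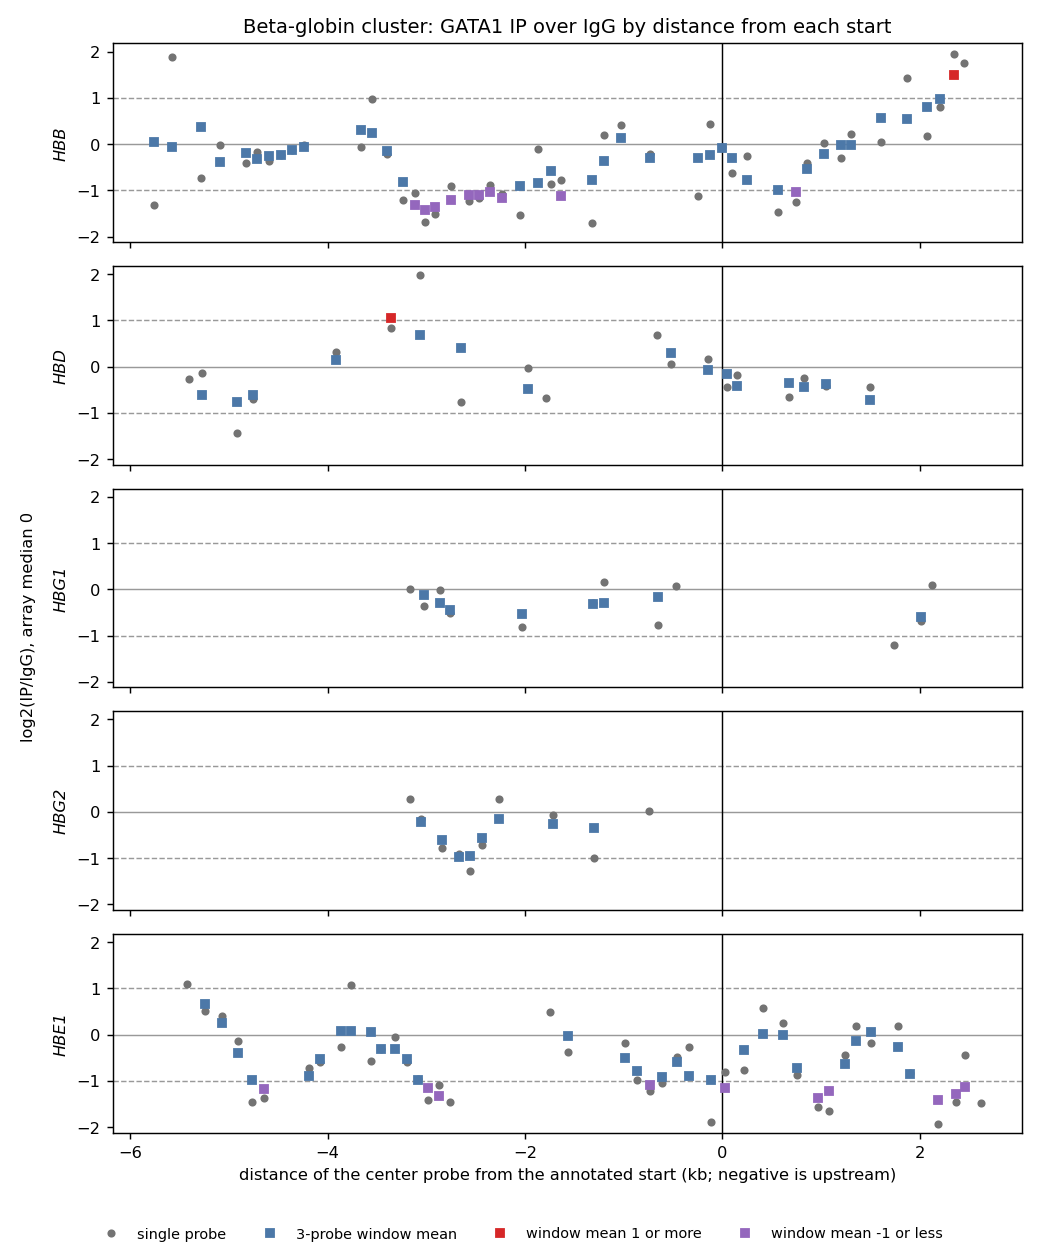
log2(IP/IgG) of single probes (gray) and of 3-probe windows (squares) against distance of the center probe from each start in kb, for the 5 beta cluster genes on the chIP2 array, with dashed lines at 1 and -1. The only enriched windows (red) lay downstream of HBB (1.498) and 3361 bp upstream of HBD (1.05). The 20 IgG-side windows (purple) belonged by symbol to HBB and HBE1, while HBG1 and HBG2 stayed between -0.98 and -0.13. The IgG-side windows upstream of HBB lay on probes also listed for HBD.

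In the alpha cluster, HBZ, the embryonic zeta chain gene, had the highest window of the alpha chain genes. It lay far upstream, at chr16:133307-133637 and centered 9347 bp before the start, on probes that the array also assigns to C16orf35 (NPRL3). The window read 1.33, from probes of 0.47, 2.40 and 1.11 with IP intensities of 2347, 1034 and 1505 and IgG intensities of 1690, 194 and 694. The middle probe had the highest log2 ratio of all 170 globin probes and a low IgG intensity. The window stood at percentile 68.2 of the genes of the array, and the window beside it read 1.01. Distal enhancers of the alpha cluster are known in the introns of NPRL3 and between NPRL3 and HBZ, and whether this window overlies one was not tested. In all, 7 HBZ probes were shared with C16orf35.

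Near the HBZ start the signal was positive but not past the threshold. The 3 probes at 445, 291 and 180 bp upstream read 1.19, 0.86 and 0.22, and their mean was 0.76. HBZ was the only alpha chain gene with probes within 500 bp of its start. Its lowest window, -0.49, held 1 HBZ probe and 2 probes of C16orf35.

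HBA2, one of the pair of adult alpha genes, had 16 probes, all upstream. All 16 are also listed for HBA1 by distance, but windows were assigned by symbol and were not counted for HBA1. Its enriched windows, 1.16 and 1.16, lay over 4 probes at chr16:158462-158854, from 4042 to 4390 bp before the start. These probes read 0.62, 0.83, 2.02 and 0.63, so 1 probe exceeded 1, with an IP intensity of 872 and an IgG intensity of 214. From 5.7 to 3.9 kb upstream, 9 of 10 probes were above 0, with a median of 0.66. The next probes toward the start were below 0, and the lowest window read -0.85, centered 3666 bp upstream, with a single probe at -1.97. The probe nearest to the start, 976 bp upstream, was above 0 again and read 0.65, with an IP intensity of 9334 and an IgG intensity of 5902. No probe lay closer, so the HBA2 promoter itself was not measured.

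HBA1 had 6 probes, and all 6 were above 0, from 0.03 to 1.44. Its highest window, centered 1122 bp upstream, read 0.83, from IP intensities of 2247, 11053 and 1630 against IgG intensities of 1823, 6554 and 599. The value was under the threshold, at percentile 32.2 of the genes of the array. No HBA1 probe lay between 866 bp upstream and 579 bp inside the gene. Of the 6 probes, 4 were also listed for HBA2, and the copies are near-identical.

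**Figure D3:**
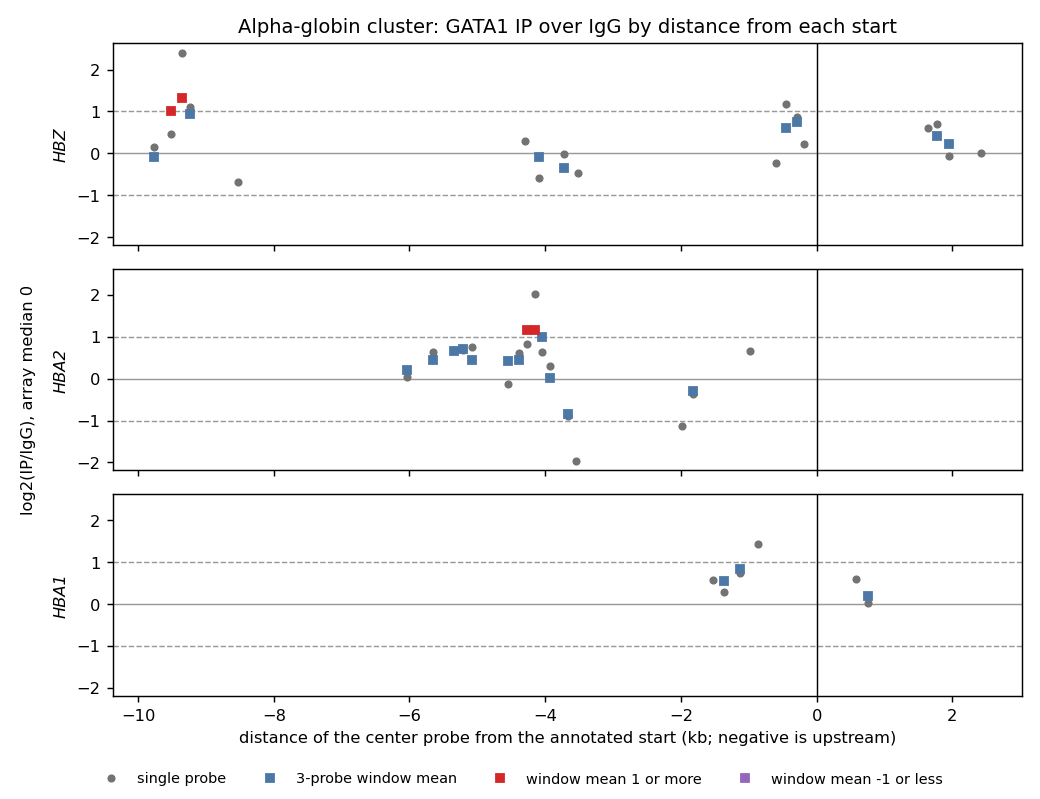
log2(IP/IgG) of single probes (gray) and of 3-probe windows (squares) against distance of the center probe from each start in kb, for the 3 alpha chain genes on the chIP2 array, with dashed lines at 1 and -1. The 4 enriched windows (red) lay more than 9 kb upstream of HBZ and about 4 kb upstream of HBA2, and 0 windows were IgG-side. The enriched HBA2 windows lay on probes also listed for HBA1.

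To compare positions rather than genes, probes were grouped by distance from the start. Within 500 bp, where the median of the array was 0.23, the 15 beta cluster probes had a median of -0.27 and 4 were above 0, while the 3 alpha cluster probes, all of HBZ, had a median of 0.86. From 2000 to 4000 bp upstream, where the median of the array was -0.19, medians were -0.71 for 39 beta probes and -0.47 for 5 alpha probes. From 4000 to 6100 bp upstream, medians were -0.24 for 22 beta probes and 0.63 for 12 alpha probes, against -0.20 for the array. From 500 to 2000 bp upstream, medians were -0.21 for 23 beta probes and 0.44 for 8 alpha probes, against -0.03 for the array. From 500 to 3000 bp past the start, they were -0.41 for 32 beta probes and 0.32 for 6 alpha probes, against -0.03. The beta median was below 0 in all 5 groups and the alpha median above 0 in 4, and the alpha groups held only 3 to 12 probes each. HBZ probes farther than 6100 bp upstream fell in no group. The array medians used only probes listed for 1 gene, a limit not set on the globin probes.

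To set the members beside related genes, the highest windows of other globin genes, of neighbors and of genes that serve hemoglobin were taken. HBQ1, the theta gene beside HBA1, had a highest window of 1.57 and HBM, the mu gene, one of 0.96. The array also listed 14 of the 20 HBQ1 probes for HBA1 and HBA2, including 2 of the 3 in the 1.57 window, and 12 of the 17 HBM probes for HBZ or HBA2. These listings are by transcript and distance, not by symbol, so the probes were not counted as probes of the alpha chain genes. Myoglobin (MB) and cytoglobin (CYGB), which bind oxygen outside red cells, read 1.39 and 1.28, and neuroglobin (NGB) read 0.79, so 3 of these 5 genes were enriched and 3 had an IgG-side window. Of 20 genes beside the clusters, 13 were enriched and 13 had an IgG-side window, with a median highest window of 1.33. For both lists, the shares over all genes of the chIP2 array were 54.9% enriched and 50.5% IgG-side. Some neighbors share windows, such as OR51B5 and OR51B6, both with a highest window of 1.84, so the 20 genes are not independent.

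Of 18 genes of hemoglobin assembly, globin regulation and hemoglobin clearance, 10 had an enriched window and 8 an IgG-side window, with a median highest window of 1.14. Among transcription factors of globin genes, the highest windows were 1.91 for MYB, 1.85 for TAL1, 1.77 for NFE2, 1.63 for GATA1 itself, 1.49 for KLF1 and 1.48 for SOX6. The GATA1 partners LDB1 and ZFPM1 read 1.45 and 1.17. HP, whose product haptoglobin clears free hemoglobin, read 1.26, and BLVRA, which encodes the heme breakdown enzyme biliverdin reductase A, read 1.11. Among these enriched genes the lowest windows were -2.79 for SOX6, -1.53 for MYB, -1.35 for LDB1 and -1.21 for HP, and above -1 for the rest. Window numbers differed widely, from 7 for HP to 83 for SOX6. MYB, TAL1, BLVRA and BCL11A were read on chIP1. The other 8 genes were below the threshold. They were the regulators ZBTB7A (0.86), BCL11A (0.78) and LMO2 (0.74), the clearance genes BLVRB (0.82), HMOX1 (0.68), HPX (0.56) and CD163 (0.21), and AHSP (0.62), the chaperone of free alpha chains, listed on the array as ERAF. Of all genes of the set, 57.1% had an enriched window and 52.9% an IgG-side window, and no list was tested against these shares.

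Some calls changed with the processing. The normexp setting started from mean signals before the detrending and dye normalization of the scanner software, and added an offset of 50. Its changes therefore cannot be credited to background correction alone. With normexp correction the highest windows were 1.54 for HBB and 1.03 for HBZ, but 0.77 for HBD and 0.86 for HBA2. The lowest windows were then -1.03 for HBB and -0.99 for HBE1, and the IgG-side windows of the beta cluster numbered 1 in place of 20. With 5-probe windows only HBB remained past the threshold toward the IP, at 1.22.

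**Figure D4:**
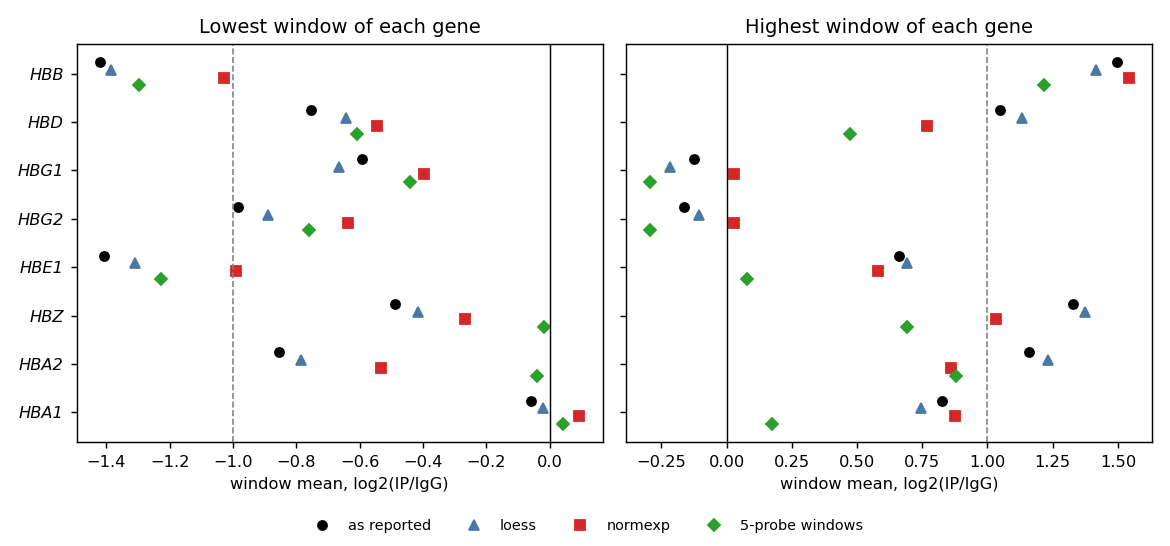
Lowest (left) and highest (right) window mean of each globin gene on the log2(IP/IgG) axis as reported (black), after loess (blue), after normexp background correction (red) and with 5-probe windows (green), with dashed lines at -1 and 1. HBB stayed at or above 1.22 toward the IP under all 4, while HBD and HBA2 fell under 1 after normexp and with 5-probe windows, and HBZ with 5-probe windows.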

How the data were processed

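For both arrays the authors deposited scanner files. Per the file headers, Agilent Feature Extraction 9.5.3.1 gave the intensity values, with a spatial surface subtracted, multiplicative detrending, linear dye normalization and no local background subtraction. The deposited log10 ratio (Cy5 over Cy3) and its error come from the same software. The deposited value table of the series held the same log10 ratios, identical for all 243485 values of chIP2 to 6 decimals. The genome build was not given in the sources used here.

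Control spots and non-uniformity outliers were dropped, as were probes that neither channel put well above background, and 236864 chIP2 probes were kept. Python 3.11.15 and limma 3.58.1 in R 4.3.3 were used, limma for normexp (offset 50) and loess (span 0.3). The code of the window search was checked on simulated data with planted stretches. The simulated noise was independent between probes and narrower than the spread of the array, so the check does not show how windows behave here. In all, 11 alternatives were run. The members and gene lists were chosen with earlier results of these data known. The commercial peak calling of the study was not used.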

Additional observations from a re-analysis of the deposited data

How the results depend on the processing

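Loess kept every count of genes and windows within 1.5 times of the reported one and both cluster medians within the scanner error. The deposited log ratios, no filter on dim probes and a filter on both channels gave the same counts. They could hardly do otherwise, because the deposited ratios equal the values used and all 170 globin probes pass both filters. With normexp, 2 globin genes had an enriched window and 1 an IgG-side window, and the beta cluster had 1 IgG-side and the alpha cluster 1 enriched window. With single probes in place of windows, 6 genes had an IgG-side value, 7 values were enriched in the beta cluster and 2 were IgG-side in the alpha cluster. With 5-probe windows, 1 gene was enriched, and the counts were 1 enriched and 10 IgG-side in the beta cluster and 0 enriched in the alpha cluster. At 3-fold all of these counts were 0. At 1.5-fold, 6 genes had IgG-side windows, with 6 enriched and 46 IgG-side windows in the beta cluster and 11 and 1 in the alpha cluster. With neighbors within 500 bp, the beta cluster had 1 enriched window.

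Without the 91 probes listed for 2 or more globin genes, 1 gene was enriched, the beta cluster had 0 enriched and 11 IgG-side windows, and the alpha cluster had 2 enriched windows and a median of 0.22. HBG1, HBG2, HBA2 and HBA1 then had no window, and the highest HBB window was -0.017, because the downstream HBB probes are also listed for HBD. Of 136 highest and lowest windows under these alternatives, 121 kept their side of the threshold and 15 did not. The 136 include the deposited log ratios and both filter settings. These could move a globin window by no more than a small shift of the array median, so the 121 overstates stability. Of 57 medians, which include the same settings, 54 moved by less than the median scanner error and 3 by more. One was HBA2 with normexp, at 0.32 against 0.67 for HBA1. The others were HBA1 (0.32) and the alpha cluster (0.22) without probes listed for 2 or more globin genes. No paired analysis was possible because the arrays share no probe and samples were not tested against each other.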
